A study of Mus musculus with 4 samples.

Results

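The lecticans and their partners build the hyaluronan matrix that surrounds neurons, and 10 of their genes were compared between Ezh2 f/f and Ezh2 cKO mice in cells sorted as astrocytes. The genes were taken by name from the 29224 rows of the count table: the lecticans Acan, Bcan, Ncan and Vcan, the transmembrane proteoglycan Cspg5, the link proteins Hapln1 and Hapln4, the tenascins Tnr and Tnc, and the hyaluronan synthase Has2. All 10 passed the filter on low counts, as did 16793 genes in all. Every library came from the cerebral cortex of mice at postnatal day 5, from cells collected on anti-GLAST (ACSA-1) magnetic beads, which bind a glutamate transporter of the astrocyte surface. Ezh2 f/f mice carry floxed Ezh2 alleles and are called controls here. Ezh2 cKO mice carry the same floxed alleles together with Aldh1l1-icre, a Cre recombinase driven from an astrocyte gene, so the floxed alleles are common to both groups and the Cre line is not. There were 2 libraries per group. The sources do not say whether the libraries of a group came from separate animals, so the p-values measure the spread between these libraries, which may be technical.

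Lecticans are secreted chondroitin sulfate proteoglycans that bind the long sugar hyaluronan at their amino-terminal end and tenascins at the other. Link proteins clamp the lectican to hyaluronan, and hyaluronan synthases extrude the hyaluronan itself. Dense nets of this kind, the perineuronal nets, form around some neurons after birth. A looser matrix rich in neurocan, versican and tenascin C is a feature of the young brain, and brevican, aggrecan, tenascin R and the link proteins are known for the mature one. Astrocytes, oligodendrocyte precursors and neurons all supply parts of it.

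Ezh2, the histone H3K27 methyltransferase deleted in the study, had 434 and 327 counts in the controls and 211 and 164 in Ezh2 cKO. It fell by 1.11 on the log2 scale (edgeR quasi-likelihood test, Benjamini-Hochberg adjusted p = 3.26e-05), the direction the labels give. Total counts ranged from 16273308 to 17522152 per library, and a count of 3, the limit that a count of 0 allows, equals 0.170 to 0.191 CPM (counts relative to the TMM-adjusted library size). Counts of replicate libraries scattered beyond what read sampling alone gives, with a chi-square per degree of freedom of 8.92 for the controls and 5.68 for Ezh2 cKO. None of the 12 astrocyte markers examined was at 0 in all libraries. Transcripts of 12 pan-neuronal markers were abundant in all libraries all the same, with a summed FPKM (the count relative to gene length and library total) of 2949 to 3142, against 129 to 627 for the astrocyte markers.

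At an adjusted p under 0.05, 6 of the 10 matrix genes were higher in Ezh2 cKO, 2 were lower and 2 were not called. Over all genes tested, 34.7% were called higher and 33.6% lower, so a call in either direction was common in this comparison. The change was at least 2-fold in 4 of the 6 higher genes and in 0 of the 2 lower genes, where 19.0% of all genes were called higher and 14.0% lower by at least that much. The CPM of the groups did not overlap for 8 of the 10, with 6 higher and 2 lower, beside 42.8% and 41.5% of all genes. The median log2 fold change was 0.76 over the 10 and 0.02 over all genes tested. With bulk RNA, fewer cells of a type and less RNA per cell cannot be told apart, which holds for every change below.

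**Figure D1:**
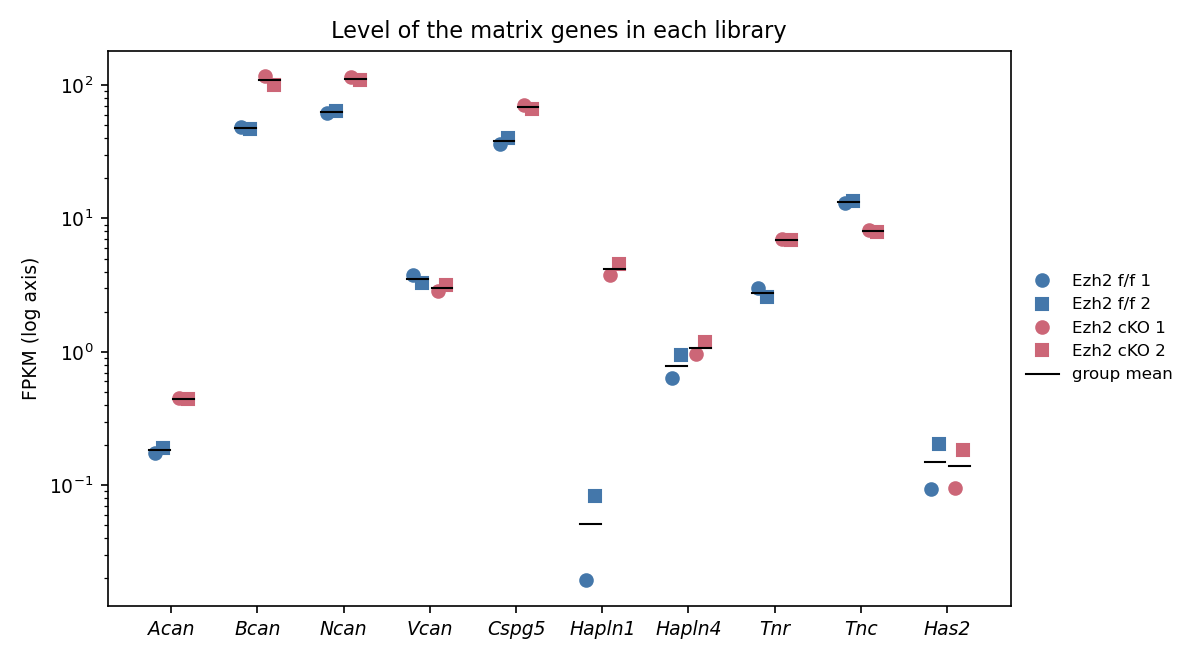
FPKM of each gene on a log axis in the 2 Ezh2 f/f libraries (blue) and the 2 Ezh2 cKO libraries (red), with circles for replicate 1, squares for replicate 2 and a black line at each group mean. Ncan, Bcan and Cspg5 lie highest, Hapln1 moves from a mean of 0.0513 to 4.17 FPKM, the points of Hapln4 nearly touch between groups, and those of Has2 overlap.

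Among the lecticans, the brain-specific members Bcan and Ncan were the most abundant and both rose. Bcan (brevican, ENSMUSG00000004892) lies on chromosome 3, 87894838 to 87907537, on the minus strand, by the deposited coordinates, whose build was not checked and which are not those of GRCm38. It had 48.6 and 47.2 FPKM in the controls and 117 and 101 in Ezh2 cKO, from 3463, 3119, 8234 and 6838 counts. Both Ezh2 cKO libraries stood well above both controls, and the rise was 1.10 on the log2 scale (SE 0.095, adjusted p = 1.84e-07 by edgeR) or 2.15-fold. Ncan (neurocan, ENSMUSG00000002341) lies on chromosome 8, 70545735 to 70573523, also on the minus strand. Its level was 61.2 and 63.4 FPKM in the controls and 114 and 109 FPKM in Ezh2 cKO. The groups did not overlap, and the log2 fold change was 0.76 (SE 0.078, adjusted p = 1.11e-06 by edgeR). Ordered by level over all 29224 genes, Ncan moved from place 871 to 423 and Bcan from place 1201 to 435.

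Acan (aggrecan, ENSMUSG00000030607), the lectican that marks mature perineuronal nets, was a trace transcript in both groups. The gene lies on chromosome 7, 78703231 to 78764847, on the plus strand. It had 23 and 23 counts in the control libraries, against 58 and 55 in those of Ezh2 cKO, or 0.176, 0.189, 0.448 and 0.442 FPKM. The groups did not overlap, yet even the higher one stayed under 1 FPKM. Acan rose by 1.20 on the log2 scale (SE 0.30, adjusted p = 0.00253 by edgeR). The ratio of the summed counts, scaled to library size, was 2.30, with a 95% interval of 1.62 to 3.32 that covers counting error only. The link protein gene Hapln3 ends 2 bases from Acan on the other strand and rose as well, and whether the counting used strand is not given in the sources used here.

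Vcan (versican, ENSMUSG00000021614) was the lectican that went down. It lies on chromosome 13, 89803431 to 89890628, on the minus strand, and had 962 and 767 counts in the controls and 717 and 769 in Ezh2 cKO. Scaled to library size these are 56.3 and 48.8 CPM against 40.7 and 44.4 CPM, which do not overlap but lie close. The log2 fold change was -0.31 (95% interval -0.53 to -0.08, adjusted p = 0.0178 by edgeR). The call was lost when Ezh2 f/f replicate 1 (-0.20), replicate 1 of Ezh2 cKO (-0.24) or replicate 2 of Ezh2 cKO (-0.37) was left out, and with limma on log2(FPKM + 1) (-0.17, adjusted p = 0.129). The number of lower genes among the 10 is then 1, Tnc, instead of 2.

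By FPKM, the lectican pool was larger and differently composed in the Ezh2 cKO libraries. Summed over Acan, Bcan, Ncan and Vcan it was 113.8 and 114.0 FPKM in the controls and 234 and 214 in Ezh2 cKO, a ratio of the means of 1.97. Ncan made up 54.7% ± 1.28 (SD, n = 2) of it in the controls and 49.9% ± 1.71 in Ezh2 cKO, and Bcan 42.1% ± 0.95 and 48.5% ± 1.91. The share of Vcan was 3.10% ± 0.336 in the controls and 1.36% ± 0.191 in Ezh2 cKO, while that of Acan was 0.154% and 0.166% against 0.191% and 0.207%. The shares of the groups did not overlap for any of the 4 lecticans, and with 2 libraries per group they were not tested. In FPKM, the ratio of Ncan to Bcan was 1.26 and 1.34 in the control libraries. In those of Ezh2 cKO it was 0.976 and 1.08, so the pair was nearly equal there by that measure. CPM is not divided by gene length, and by CPM Ncan stayed ahead in Ezh2 cKO, at 807 and 757 against 467 and 395 for Bcan. The size of the change in share also differs when CPM is used.

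**Figure D2:**
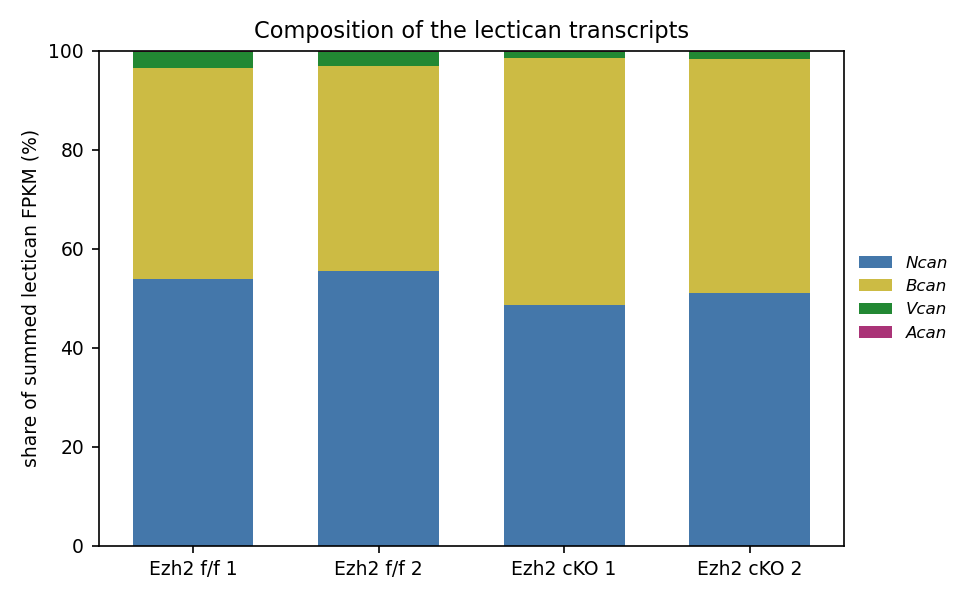
Share of each lectican in the summed lectican FPKM, in percent, with a stacked bar for each of the 4 libraries. Bcan takes 41.4% to 42.7% in the controls and 47.2% to 49.9% in Ezh2 cKO, Vcan narrows from a mean of 3.10% to 1.36%, and Acan, at 0.207% or less, is too thin to be seen.

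Cspg5 (neuroglycan C, ENSMUSG00000032482) encodes a membrane-spanning chondroitin sulfate proteoglycan of the brain with an EGF-like domain and lies on chromosome 9, 110072851 to 110091644, on the plus strand. Its counts were 6362 and 6517 in the controls and 12295 and 11173 in Ezh2 cKO, or 36.0, 39.8, 70.4 and 66.5 FPKM. Both Ezh2 cKO libraries were higher than both controls. The log2 fold change was 0.77 (SE 0.085, adjusted p = 2.23e-06 by edgeR), and the gene moved from place 1547 to 765 in the order of all levels.

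The link proteins gave the largest change of the 10 genes. Hapln1 (cartilage link protein, ENSMUSG00000021613), on chromosome 13, 89687915 to 89759771, plus strand, had 2 and 8 counts in the control libraries, against 388 and 448 in those of Ezh2 cKO. In Ezh2 f/f it was thus under the floor of 3 counts in replicate 1 and a little above it in replicate 2, and in Ezh2 cKO it reached 3.79 and 4.55 FPKM. The log2 fold change was 6.26 (SE 0.31, adjusted p = 1.13e-09 by edgeR), the 26th largest rise among all 16793 genes tested. Hapln1 passed the filter on low counts, which works from a count of 10, through the Ezh2 cKO libraries alone. A gene admitted in that way can only appear as a rise, so its place among the rises is partly set by the filter. The ratio of summed counts scaled to library size was 78.4, with a 95% counting interval of 42.4 to 164. The controls hold 10 counts in all, and the fitted value was 7.57 without Ezh2 f/f replicate 2 and 5.53 with replicate 1 of the controls left out instead, and the call held in all 12 alternatives. A pseudogene that overlaps Hapln1 on the other strand, Gm8546, had 1, 4, 4 and 10 counts in the same order of libraries.

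Hapln4 (brain link protein 2, ENSMUSG00000007594), on chromosome 8, 70536107 to 70543512, plus strand, was present at a low level in both groups. It had 0.640 and 0.940 FPKM in the controls and 0.956 and 1.19 FPKM in Ezh2 cKO. The nearest libraries of the groups were almost equal in FPKM, and in CPM, at 2.58 and 3.82 against 3.69 and 4.50, the groups overlapped. The log2 fold change of 0.36 did not pass the test (95% interval -0.22 to 0.94, adjusted p = 0.245 by edgeR), and an interval that reaches 1.92-fold does not show equal levels. The order of the link proteins differed between the groups. The ratio of Hapln1 to Hapln4 FPKM was 0.0302 and 0.0886 in the controls and 3.97 and 3.82 in Ezh2 cKO. Per FPKM of Hapln1 and Hapln4 together there were 173 and 111 FPKM of lectican in the controls, and 49.3 and 37.2 in Ezh2 cKO. With Hapln2 and Hapln3 counted as well, the values were 67.3 and 62.2 in the controls, and 34.3 and 26.8 in Ezh2 cKO.

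**Figure D3:**
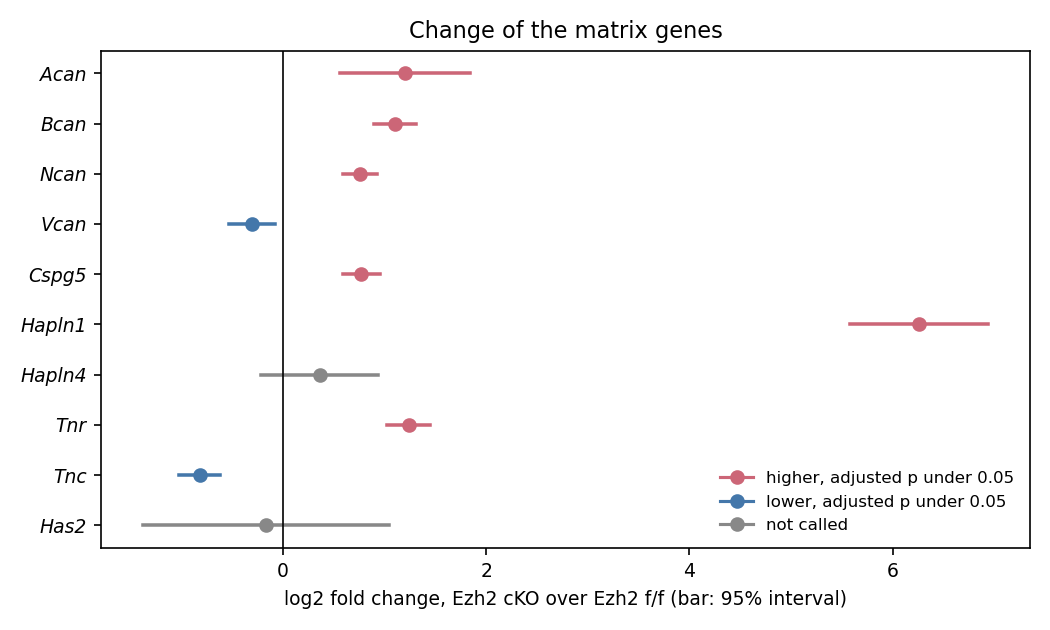
Log2 fold change of Ezh2 cKO over Ezh2 f/f for each gene (points) with its 95% interval (bars), in red where called higher, blue where called lower and grey where not called. Hapln1 stands apart at 6.26, Tnr, Acan and Bcan lie between 1.10 and 1.24, Vcan and Tnc lie below 0, and the intervals of Hapln4 and Has2 cross 0.

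In the mouse genome each link protein gene is the neighbour of a lectican gene, with 0 genes listed between them in the deposited table for any of the 4 pairs. The members of a pair did not always move alike. Vcan and Hapln1, whose 3' ends face each other across 43.7 kb, went -0.31 and 6.26 on the log2 scale. Acan and Hapln3 both rose, by 1.20 and 1.92; Hapln3 had 31, 24, 112 and 110 counts. Ncan rose by 0.76 while Hapln4, 2222 bases away, had 0.36. Bcan rose by 1.10, and Hapln2, 21.5 kb away on the same strand and known from the nodes of myelinated axons, had -0.71 (95% interval -1.65 to 0.24, adjusted p = 0.166 by edgeR) at 22, 15, 10 and 14 counts.

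The start sites of these neighbours differ in sequence. RefSeq promoter windows of 300 bases around the start, on build GRCm38.p6, were matched for 7 of the 10 genes, with 8 windows because Tnc has a pair of starts. Shown are the windows of the low genes that rose, Hapln1 (chr13:89540386-89540685, plus strand) and Acan (chr7:79052976-79053275, plus strand), and of Vcan (chr13:89742463-89742762, minus strand), the neighbour of Hapln1, which fell. They are written 5' to 3', with every CG dinucleotide in capitals.
Hapln1: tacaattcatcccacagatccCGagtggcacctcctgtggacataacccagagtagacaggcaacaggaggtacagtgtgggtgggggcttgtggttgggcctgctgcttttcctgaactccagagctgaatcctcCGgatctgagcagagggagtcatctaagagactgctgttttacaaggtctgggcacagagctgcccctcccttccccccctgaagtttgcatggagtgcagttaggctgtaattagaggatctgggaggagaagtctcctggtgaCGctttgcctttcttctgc
Acan: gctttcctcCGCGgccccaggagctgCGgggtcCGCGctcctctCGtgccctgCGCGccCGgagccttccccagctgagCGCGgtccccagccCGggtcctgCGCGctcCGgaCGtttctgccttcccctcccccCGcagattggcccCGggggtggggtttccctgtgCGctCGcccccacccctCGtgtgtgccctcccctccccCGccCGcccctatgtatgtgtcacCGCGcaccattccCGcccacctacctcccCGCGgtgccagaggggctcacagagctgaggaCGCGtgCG
Vcan: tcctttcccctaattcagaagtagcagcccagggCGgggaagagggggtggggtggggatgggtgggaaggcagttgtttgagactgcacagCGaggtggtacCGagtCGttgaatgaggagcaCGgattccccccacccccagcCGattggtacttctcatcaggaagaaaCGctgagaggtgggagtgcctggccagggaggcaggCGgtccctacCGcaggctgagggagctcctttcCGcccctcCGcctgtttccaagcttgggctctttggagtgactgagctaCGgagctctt
Hapln1 has 3 CG sites in its window, and 76.7% of the 32851 windows in the table have at least that many. Acan has 31, a number that 10.6% of windows reach, and Vcan has 12, which 39.6% reach. Tnr has 3 CG sites as Hapln1 does, Ncan has 9, the Tnc windows 10 and 16, and Bcan 24. The genes called higher that have a window thus span from 3 to 31 sites, on both sides of the median of 7 over all windows. Cspg5, which was also called higher, has no window here, and neither do Hapln4 and Has2. The motif TATAAA, searched on both strands, was in the window of Ncan and in both overlapping windows of Tnc, so in 3 of 8, and in 13.6% of all windows. Because the Tnc windows share bases, the same site may be counted in both. These counts describe the sequence alone, and neither methylation nor binding was measured here.

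The tenascins, the glycoproteins that crosslink lecticans, moved in opposite directions. Tnr (tenascin R, ENSMUSG00000015829), the partner of lecticans in perineuronal nets, lies on chromosome 1, 159351339 to 159759299, on the plus strand. It had 673 and 537 counts in the controls and 1551 and 1479 in Ezh2 cKO, or 2.99, 2.56, 6.96 and 6.89 FPKM. The groups were far apart, with a log2 fold change of 1.24 (SE 0.10, adjusted p = 9.64e-08 by edgeR). Tnc (tenascin C, ENSMUSG00000028364), the tenascin of progenitor niches and young astrocytes, lies on chromosome 4, 63878022 to 63965252, on the minus strand. It had 13.2 and 13.5 FPKM in the controls and 8.14 and 7.85 in Ezh2 cKO. Both Ezh2 cKO libraries were below both controls, and Tnc fell by 0.82 on the log2 scale (SE 0.095, adjusted p = 3.26e-06 by edgeR). The ratio of Tnc to Tnr FPKM was 4.41 and 5.27 in the controls and 1.17 and 1.14 in Ezh2 cKO. The other tenascins examined, Tnn and Tnxb, were not called, with log2 fold changes of 0.62 and -0.03.

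Has2 (ENSMUSG00000022367), the main hyaluronan synthase of many embryonic tissues, lies on chromosome 15, 56529023 to 56557935, on the minus strand, and was close to the limit of detection. Its counts were 7 and 14 in the controls and 7 and 13 in Ezh2 cKO. The groups overlapped completely, and the log2 fold change of -0.17 had a 95% interval of -1.37 to 1.04 (adjusted p = 0.803 by edgeR). In folds that interval runs from 0.386 to 2.06, and a difference within it was not detectable at this depth. Its sign turned to 0.46 without Ezh2 f/f replicate 2 and to 0.22 without replicate 1 of Ezh2 cKO. Its antisense gene Has2os, whose span overlaps that of Has2, had 4, 0, 5 and 5 counts. Reads from bases that both genes share cannot be told apart without strand.

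A wider set of 98 genes of the same matrix, listed by role, was counted in the same fit. Of the 96 that were tested, 47 were higher, 15 were lower and 34 were not called, with a median log2 fold change of 0.38. Over all genes tested 34.7% were higher and 33.6% lower, the shares beside which each count by role is to be read, and several of those counts lie near them. In each role the genes named are those called with the largest changes in either direction and a mean of at least 1 FPKM.

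Other enzymes and carriers of hyaluronan were mixed. Of 4 further synthesis genes, 2 were higher: the synthase Has3 (0.40, from 158 and 157 to 223 and 220 counts) and Uap1 (0.59), which makes the hyaluronan precursor UDP-N-acetylglucosamine. Of 12 genes for breakdown and receptors, 6 rose and 2 fell. Cemip, which is needed for hyaluronan depolymerization, rose by 2.80 on the log2 scale from 91 and 48 counts to 522 and 508, and its relative Cemip2 fell by 1.52 from 618 and 562 counts to 208 and 230. The hyaluronidase Hyal2 fell by 0.40 on the log2 scale.

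Genes that build and sulfate chondroitin chains were called in both directions. Of 16 genes of chain synthesis and its precursors, 6 rose and 4 fell. Xylt2, a xylosyltransferase that starts the chain, fell by 0.93, and the chain-extending synthase Chsy1 fell by 1.12 from 438 and 410 to 218 and 199 counts. Csgalnact1, which commits the chain to chondroitin, rose by 2.12 from 51 and 28 to 176 and 189 counts, and Papss2, which makes the sulfate donor, rose by 1.88. Of 12 tested genes of sulfation, epimerization and desulfation, 8 rose and 1, the dermatan sulfotransferase Chst14, fell (-0.85). The uronyl 2-sulfotransferase Ust had the largest rise of these, 2.78, from 74 and 68 to 495 and 545 counts. Arsb, a lysosomal sulfatase that removes sulfate from N-acetylgalactosamine, rose by 2.21 from 286 and 218 to 1223 and 1259 counts.

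Of 12 further genes listed as chondroitin sulfate proteoglycans or as related to them, 9 rose and 2 fell. Cspg4, among the 9, is also in the list of oligodendrocyte precursor markers. Spock3, a testican, rose by 2.03, and Cd74, the invariant chain of MHC class II and a marker of immune cells, rose by 2.73 from 12 and 10 to 80 and 77 counts. The semaphorin receptor Nrp1 fell by 1.30 and the SPARC-related Smoc1 by 0.67. Of 13 lectican-cleaving and other matrix proteases, 4 rose and 2 fell. Adamts8 rose by 0.75 and the membrane protease Mmp16 by 0.40, while Mmp9, a gelatinase that acts on perineuronal nets, fell by 2.16 from 249 and 296 to 51 and 79 counts, and Mmp2 fell by 0.39. Of 5 inhibitors, Timp4 rose by 2.17, Timp3 fell by 0.48 and Timp2 by 0.22.

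Among receptors and binding partners, 10 of 18 tested rose and 2 fell. Cntn1, a neuronal adhesion protein that binds tenascins, rose by 2.43 from 729 and 707 to 3943 and 4322 counts, and the integrin subunit Itgb3 rose by 2.76 from 41 and 27 to 278 and 215. Ptprs, a phosphatase receptor for chondroitin sulfate, fell by 0.85 from 18924 and 15291 to 10505 and 9741 counts. Sdc3, a neural syndecan, fell by 0.70. The calls of Has3, Hyal2, Chst14, Adamts8, Mmp16, Mmp2 and Timp2 were lost under at least 1 alternative.

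**Figure D4:**
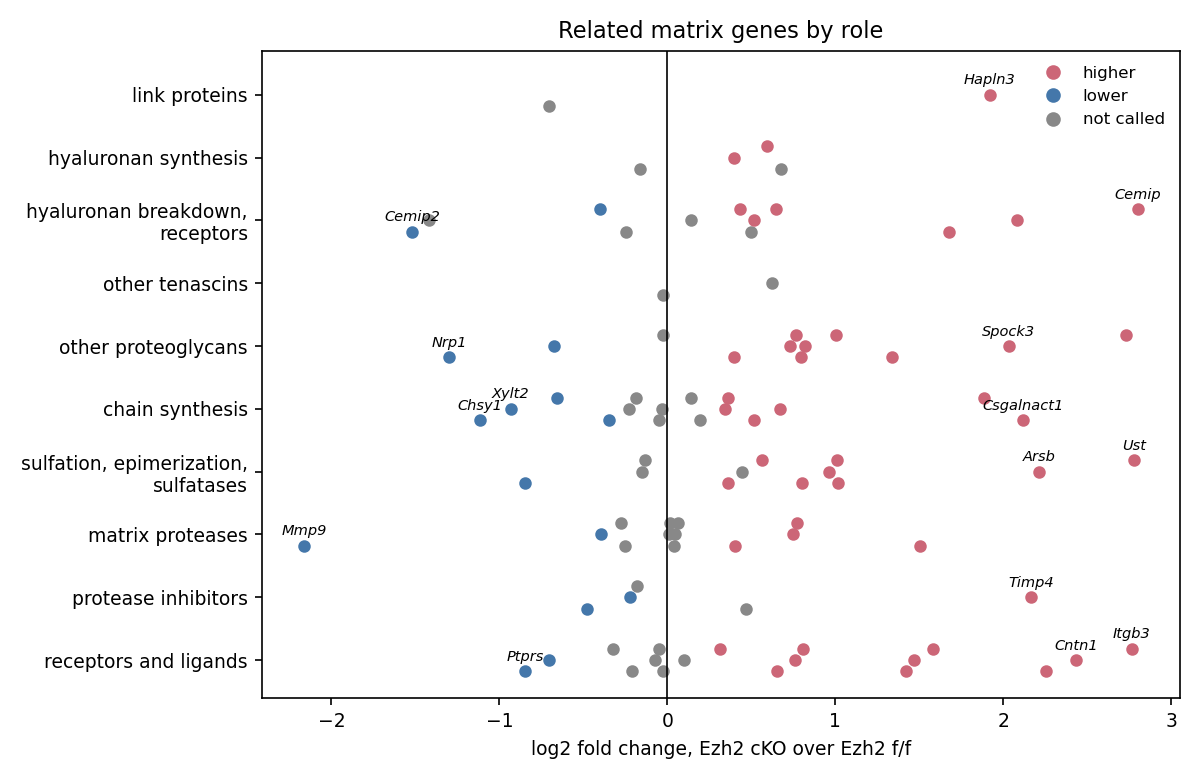
Log2 fold change of Ezh2 cKO over Ezh2 f/f for the 96 tested genes of the wider matrix set, a point for each, arranged by role and coloured by call (red higher, blue lower, grey not called); vertical offsets within a role only separate points. Higher calls (47) outnumber lower calls (15), with Cemip at 2.80 and Ust at 2.78 on the right and Mmp9 at -2.16 on the left.

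Markers of the cells that supply this matrix moved with the groups as well. The counts called are to be read beside the shares over all genes tested, 34.7% higher and 33.6% lower. All 10 oligodendrocyte precursor markers were higher in Ezh2 cKO, and their summed FPKM was 57.9 and 58.5 in the controls and 210 and 187 in Ezh2 cKO. Of 12 astrocyte markers, 10 were higher and 0 lower, with sums of 129 and 140 against 627 and 567 FPKM, while Aldh1l1 and Sox9 were not called (-0.15 and -0.06). Slc1a3, the gene of the GLAST transporter that the beads bind, was among the 10 higher. It had 1664 and 1617 counts in the controls and 5334 and 5191 in Ezh2 cKO. Whether the sort took the same cells in both groups was not tested. Of 10 oligodendrocyte markers, 8 were tested and all 8 were higher (21.4 and 23.1 against 163 and 144 FPKM).

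The pan-neuronal sum was 2949 and 3142 FPKM in the controls and 3069 and 3080 in Ezh2 cKO, with 9 markers higher and 3 lower. Its largest term, Tubb3, was among the 3 lower, with a mean of 1878 FPKM in the controls and 1215 in Ezh2 cKO. Excitatory neuron markers, 2 higher and 5 lower of 10, summed to 390 and 344 against 729 and 699 FPKM. The 2 higher were Slc17a7 (mean 22.5 in the controls, 258 FPKM in Ezh2 cKO) and Camk2a (32.4 and 282). Inhibitory interneuron markers, 3 higher and 5 lower of 12, summed to 508 and 439 against 560 and 548 FPKM. Cycling progenitor markers, 1 higher and 8 lower of 10, summed to 55.0 and 61.3 against 41.0 and 39.8 FPKM. Microglia markers were all 10 higher (a summed FPKM 3.01 times as high), and vascular and fibroblast markers were 4 higher and 2 lower of 12 (146 and 137 against 179 and 161 FPKM). Pdgfra, among these 4, is also in the list of oligodendrocyte precursor markers. Beside these counts, 34.7% of all genes tested were called higher and 33.6% lower, and some of the lists lie near those shares. None of the listed markers was at 0 in all 4 libraries. The part of any of these cells in the changes of the matrix genes was not tested.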

How the data were processed

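RNA of anti-GLAST-sorted cortical cells was sequenced on an Illumina HiSeq instrument, giving 2 control (Ezh2 f/f) and 2 Ezh2 cKO libraries. As files, the authors deposited raw read counts per gene for 29224 genes and FPKM values; for every gene the FPKM equalled the count divided by a fixed gene length and the library total (within a tolerance of 0.001), so both tables hold the same measurement. The submitters' processing notes name Bowtie2 2.2.3, TopHat2 2.0.12, HTSeq 0.6.0 and the build mm9. The annotation and the use of strand are not given in the sources used here. Gene coordinates are printed as deposited; they are not those of GRCm38, their build was not checked, and they were not converted. The authors' comparison columns (mean, ratio, its log2, p-values) were not used, and 0 sample columns were left out.

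Counts were tested with edgeR 4.0.16 in R 4.3.3 (filterByExpr, TMM, quasi-likelihood, group as the only term), with Benjamini-Hochberg adjustment over 16793 genes and calls at 0.05. TMM factors ranged from 0.967 to 1.040 and the common biological coefficient of variation was 0.0953. SE and 95% intervals were derived from the F statistic. With 2 libraries per group no permutation test of a single gene can pass 0.05. The fit was also run on simulated data with 200 changed genes among 16546 tested, raised and lowered alike. There edgeR recovered 198 of the 200 and made 12 false calls. Far more genes were called in the real comparison, so that run does not show how the fit behaves under so broad a change. Alternatives were DESeq2 1.42.0, its size factors in edgeR, no filter, a mean of at least 50 counts, limma 3.58.1 on log2(FPKM + 1) or log2(FPKM + 0.1) with FPKM of at least 1 in 2 libraries or without filter, a replicate block, leaving out each library in turn, and lectican shares of CPM. Promoter sequences were read with Python 3.11.15.

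The 10 genes and all lists were chosen with earlier results of these data known. Named are the 10 genes, Ezh2, Hapln2, Hapln3, and up to 2 genes per direction and list with the largest called change and a mean of at least 1 FPKM. Other genes named were chosen after their values were seen. A gene that this rule names is not reported here.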

Additional observations from a re-analysis of the deposited data

How the results depend on the processing

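The count of matrix genes called higher was 6 in 9 of 12 alternatives and 5 in the other 3 (a mean of at least 50 counts, and limma with the FPKM filter and either pseudocount), where Acan was not among the genes tested. The count called lower was 1 instead of 2 with limma on log2(FPKM + 1), on log2(FPKM + 0.1) and on log2(FPKM + 1) without filter, and it ranged from 1 to 2 when a library was left out, Vcan losing its call each time; the cause was not tested. The log2 fold change of Has2 ranged from -0.69 to 0.46 when a library was left out, and reversed to 0.46 without Ezh2 f/f replicate 2 and to 0.22 without replicate 1 of Ezh2 cKO. As shares of summed CPM, the change in lectican share was 0.0611 percentage points for Acan, -2.29 for Ncan and -3.95 for Vcan, since CPM weights genes by length. With the replicate block, 6 matrix genes were higher and 2 lower, and the wider set had 44 higher and 18 lower. Over all genes tested, the log2 difference of replicate 1 from replicate 2 in the controls correlated with that in Ezh2 cKO at 0.119. The labels do not say that the numbers mark shared animals. Over all log2 fold changes given, 444 alternative values kept direction and call, 34 lost the call and 2 reversed. Acan and Has2 could not be fitted under the filters on FPKM and on a mean of 50 counts, nor Hapln4 under that on FPKM. At this depth 3 counts equal up to 0.191 CPM, which limits what Has2 and, in Ezh2 f/f, Hapln1 can show.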

Other observations

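Outside the 10 genes, 17 carry the gene ontology term for hyaluronic acid binding in the deposited annotation, a set added after values of these data were seen, and 9 of them are also in the lists by role. Of the 8 in no list, 6 were tested, of which 4 were higher, 1 was lower and 1 was not called by edgeR. Among all genes tested, 34.7% were called higher and 33.6% lower. Susd5, a sushi-domain protein, had 2 and 2 counts in the controls and 155 and 125 in Ezh2 cKO. Its control counts lie under the floor of 3 counts in both libraries, and both Ezh2 cKO libraries lie far above it. Susd5, like Hapln1, passed the filter on low counts through Ezh2 cKO alone and so could only appear as a rise. Layn (layilin), a hyaluronan receptor, had 17 and 28 counts in the controls and 151 and 138 in Ezh2 cKO, with a rise on the log2 scale of 2.58 (adjusted p = 1.66e-06 by edgeR). C1qbp, which binds hyaluronan and is best known as a mitochondrial protein, had 2149 and 1965 counts against 1251 and 1212 and fell by 0.83 on the log2 scale.

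Among the receptors and ligands, Otx2, a homeobox factor that perineuronal nets take up, had 10 and 71 counts in the controls and 1 and 1 in Ezh2 cKO, and did not pass the filter on low counts. The control libraries differed from each other more than replicate 1 differed from the Ezh2 cKO libraries. Adamts4, a protease that cleaves brevican and aggrecan, had 21 and 39 counts in the controls and 97 and 86 in Ezh2 cKO, and was called higher by edgeR.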
